A study of Bos taurus with 6 samples.

Results

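The 7 miRNAs described here are bta-miR-99a-5p, bta-miR-99b, bta-miR-100, bta-miR-10a, bta-miR-10b, bta-miR-125a and bta-miR-125b, all those of these families that have a row in the deposited count table. They were taken by name, 7 of 706 listed miRNAs and of 359 known ones (names beginning with bta-). Serum extracellular vesicles (EVs), membrane-enclosed particles released by cells, were isolated from 6 lactating Holstein cows, and the small RNAs of each cow were sequenced as 1 library. The 3 control cows were fed a total mixed ration (TMR), and for the 3 tested cows whole cotton seed and soybean hull took the place of part of the alfalfa hay, for 30 days in both groups. All cows were females in mid lactation (101 days in milk, 574 kg and 32 kg of milk per day on average), kept at 20 °C and 40% humidity. Known miRNA counts per library ran from 1226928 to 2088249, and all 7 miRNAs were counted in every library, with 152 counts as the lowest value.

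A miRNA is a short RNA that guides a silencing complex to messenger RNAs, mainly through its seed, the bases at positions 2 to 8 from the 5′ end. The miR-99 and miR-100 miRNAs are known for acting on the mTOR growth pathway, and miR-125 is the mammalian counterpart of the worm timing miRNA lin-4. Genes of the miR-99 or miR-100 kind, of let-7 and of miR-125 lie next to each other at several places in mammalian genomes, while miR-10a and miR-10b lie inside the HOX gene clusters that pattern the body axis. In the RefSeq gene table of assembly ARS-UCD2.0, a later build than the one the authors used, 11 of 11 genes looked up were found. Within 100 kb of each other it lists MIR99A, MIRLET7C and MIR125B-2, then MIR100, MIRLET7A-2 and MIR125B-1, and within 10 kb MIR99B, MIRLET7E and MIR125A. MIR10A overlaps the span of HOXB3 and MIR10B that of HOXD4. The mature bta-miR-125b has a single row in the count table although the gene table lists a pair of genes for it, so the counts from the miR-99a and miR-100 clusters are summed in it.

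The listed mature sequences show why the miRNAs fall into 3 seed groups and how close the members of a group are, with the seed in capitals and T for U as in the deposited file.
bta-miR-99a-5p: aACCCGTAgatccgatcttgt
bta-miR-100: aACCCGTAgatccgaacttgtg
bta-miR-99b: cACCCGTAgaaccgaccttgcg
bta-miR-10a: tACCCTGTagatccgaatttgtg
bta-miR-10b: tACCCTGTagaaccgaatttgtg
bta-miR-125a: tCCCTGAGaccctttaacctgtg
bta-miR-125b: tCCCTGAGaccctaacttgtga

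The seed ACCCGTA is shared by miR-99a, miR-99b and miR-100, ACCCTGT by miR-10a and miR-10b, and CCCTGAG by miR-125a and miR-125b, and no other of the 706 listed miRNAs has any of them. Positions are counted from 1 at the 5′ end, with the base of the first-named miRNA first. From miR-99a to miR-100 the only substitution over their shared 21 bases is T16A, and from miR-10a to miR-10b it is T12A. From miR-99a to miR-99b there are A1C, T11A, T16C and T21C. The sequences of miR-125a and miR-125b share their first 13 bases and are 4 edits apart. None of the 7 sequences lies inside another listed sequence. How reads that match more than 1 of these near-identical miRNAs were assigned is not given in the sources used here, so the split between miR-99a and miR-100 and between miR-10a and miR-10b is uncertain to that extent.

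Values of a group are given in the order of cows 1, 2 and 3 throughout. The 7 miRNAs together held 8.14%, 8.995% and 6.87% of the known miRNA counts in control cows 1, 2 and 3 and 8.78%, 9.51% and 8.97% in tested cows 1, 2 and 3. Each read covers a whole miRNA, so levels are given as shares of known counts without division by length. They were very unequal. Over the 6 cows, bta-miR-99a-5p averaged 5.55% ± 0.912 (SD, n = 6), bta-miR-125b 1.42% ± 0.121, bta-miR-125a 1.06% ± 0.13 and bta-miR-99b 0.428% ± 0.0595. Far lower were bta-miR-100 with 0.0320% ± 0.0184, bta-miR-10b with 0.0278% ± 0.0162 and bta-miR-10a with 0.0157% ± 0.00943. The 4 abundant miRNAs stood at ranks 6, 16, 20 and 32 among the known miRNAs by mean share, and the 3 scarce ones at ranks 76, 81 and 92.

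This order was the same in all 6 libraries for every neighbouring pair but bta-miR-100 and bta-miR-10b. The former exceeded the latter in 4 of 6 libraries, with a ratio between 0.699 and 2.01, so these neighbours did not differ beyond their spread. The step from bta-miR-99b down to bta-miR-100 was the widest, 6.94-fold to 29.4-fold within a library. Despite the single substitution between them, bta-miR-99a-5p outnumbered bta-miR-100 by 122, 214 and 303 to 1 for control cows, against 100.2, 491 and 163 to 1 for tested cows. The ratio varied 4.90-fold between cows, and the groups overlapped.

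**Figure D1:**
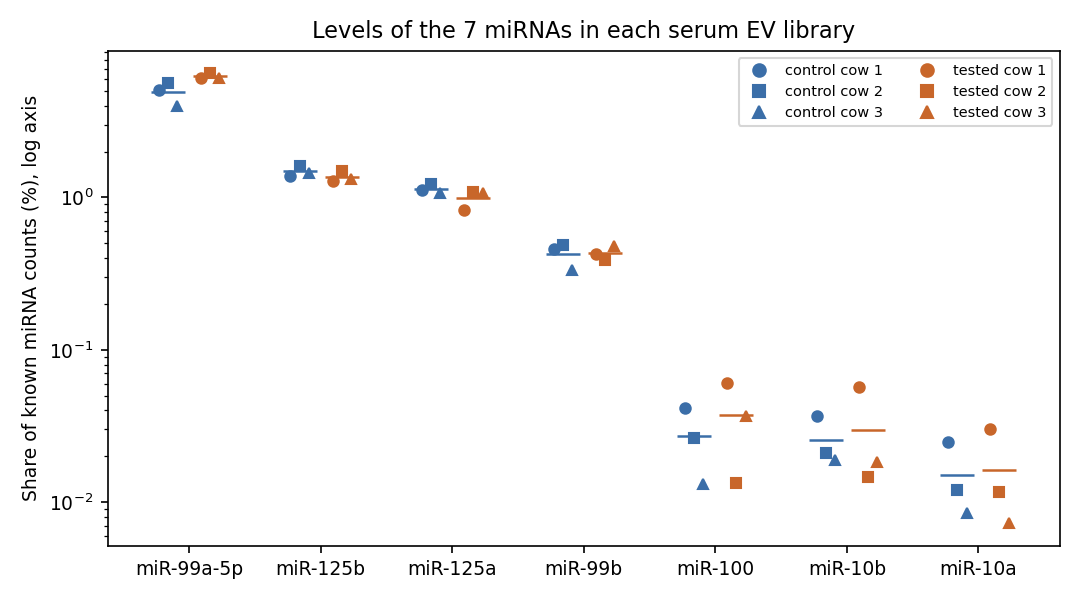
The share of known miRNA counts (percent, log axis) of each of the 7 miRNAs, 1 point per cow with bars at the group means. The 4 abundant miRNAs lie between 0.332% and 6.53% with little spread, and miR-100, miR-10b and miR-10a lie at 0.0609% or less with a spread of about 4-fold.

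The diet comparison asks whether the level of each miRNA differed between the 3 tested and the 3 control cows. It was made by quasi-likelihood testing in edgeR over all 623 miRNAs with a summed count of at least 10, with TMM normalisation, which rescales every library after trimming miRNAs of extreme ratio. Of the 7 miRNAs, 0 passed the threshold (unadjusted p under 0.05 together with a log2 fold change beyond 1 in either direction), where 3.21% of all 623 miRNAs passed. An unadjusted p below 0.05 alone was found for 1 of the 7, bta-miR-99a-5p, against 4.65% of all miRNAs. The adjusted p-values of the 7 from edgeR ran from 0.448 to 0.987. Their median log2 fold change, tested over control, was 0.10, that of all 623 miRNAs was 0.07, and 4 of the 7 were positive, as were 53.5% of all 623. With DESeq2 and with limma, none of the 7 had an unadjusted p below 0.05.

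Among the miR-99 and miR-100 miRNAs, bta-miR-99a-5p made up 5.06%, 5.61% and 3.99% of known counts for control cows, against 6.10%, 6.53% and 6.03% for tested cows. By this share the groups did not overlap, the tested cows being the higher ones, and such a separation in either direction was found for 1 of the 7 miRNAs and for 8.01% of the 312 known miRNAs tested. In CPM (counts relative to the TMM-scaled library total) the groups overlapped for all 7, control cow 2 with 54627 CPM exceeding tested cow 3 with 52931 CPM, where 10.8% of the 623 miRNAs did not overlap. The log2 fold change of bta-miR-99a-5p was 0.30 (standard error 0.135, 95% interval 0.01 to 0.59, unadjusted p of 0.0449 and adjusted p = 0.448 from edgeR). In exact permutation tests of 3 cows against 3 the smallest possible p is 0.1, which is the value for this share. The unadjusted p of edgeR was 0.0907 without control cow 1, 0.0679 without control cow 2, 0.150 without control cow 3, 0.0760 without tested cow 1 and 0.169 without tested cow 2, and it stayed below 0.05 without tested cow 3, at 0.0321. Without tested cow 2 it was bta-miR-125a that had an unadjusted p below 0.05, at 0.0486 from edgeR. In the deposited RPM values, which relate counts to all clean reads of a library, the direction turned, with 7154 ± 1682 RPM (SD, n = 3) for control and 6856 ± 2874 RPM (SD, n = 3) for tested cows. On this scale the tested mean was the lower one for all 7 miRNAs, with overlapping groups, so the direction also turned for bta-miR-99b (0.746 times the control mean, against 1.01 times as a share of known counts), bta-miR-100 (0.951 against 1.37 times), bta-miR-10a (0.820 against 1.08 times) and bta-miR-10b (0.816 against 1.17 times).

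The share of bta-miR-99b was 0.460%, 0.484% and 0.332% for control cows, against 0.422%, 0.390% and 0.482% for tested cows. These ranges overlapped almost entirely. The log2 fold change was -0.03 (95% interval -0.48 to 0.41, adjusted p = 0.987 from edgeR). This interval, taken from edgeR alone, leaves out a change above the threshold of 1 in either direction. For bta-miR-100 the counts were 639, 528 and 262 for control cows, against 747, 250 and 772 for tested cows, or 0.0416%, 0.0263% and 0.0132% and 0.0609%, 0.0133% and 0.0370% of known counts. Cows of the same group differed more than the group means did. The log2 fold change was 0.41 (95% interval -0.83 to 1.65, adjusted p = 0.881 from edgeR), so a change of either sign was not resolved, and without tested cow 1 it was -0.18.

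Of the miR-10 miRNAs, bta-miR-10a had 383, 240 and 170 counts for control cows, against 369, 219 and 152 for tested cows. As shares of known counts these were 0.0249%, 0.0119% and 0.00854% and 0.0301%, 0.0117% and 0.00728%. The lowest of these shares has a 95% Wilson interval of 0.00621% to 0.00853% and the highest one of 0.0272% to 0.0333%, and such intervals take in counting error alone, PCR duplicates not being separate molecules. The groups overlapped. For bta-miR-10b the counts were 564, 424 and 375 for control cows, against 698, 274 and 385 for tested cows, or 0.0367%, 0.0211% and 0.0188% and 0.0569%, 0.0146% and 0.0184% of known counts. Tested cow 1 was the highest and tested cow 2 the lowest of all 6. The log2 fold change was 0.10 for bta-miR-10a (95% interval -1.35 to 1.54, adjusted p = 0.987 from edgeR) and 0.19 for bta-miR-10b (95% interval -1.05 to 1.43, adjusted p = 0.979 from edgeR). Without tested cow 1, both turned to -0.68.

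The partners bta-miR-125a and bta-miR-125b had negative log2 fold changes that did not pass the test. The share of bta-miR-125a was 1.121%, 1.219% and 1.073% for control cows, against 0.827%, 1.078% and 1.072% for tested cows. Tested cow 1 was the lowest, and the other tested cows lay close to control cow 3. The share of bta-miR-125b was 1.39%, 1.62% and 1.44% for control cows, against 1.28%, 1.48% and 1.33% for tested cows, and the groups overlapped. The log2 fold changes were -0.26 (95% interval -0.63 to 0.12, adjusted p = 0.572 from edgeR) and -0.18 (95% interval -0.53 to 0.18, adjusted p = 0.717 from edgeR). With 1 cow left out they ran from -0.38, without tested cow 2, to -0.14, without tested cow 1, for bta-miR-125a, and for bta-miR-125b from -0.31, without tested cow 2, to -0.09, without tested cow 3, with -0.12 without control cow 2. Both 95% intervals over all 6 cows leave out a change above the threshold, which rests on edgeR alone. For bta-miR-125a limma gave a log2 fold change of -0.27 with an unadjusted p of 0.572, against an unadjusted p of 0.161 from edgeR. The exact permutation tests of the shares gave p = 0.2 and p = 0.3.

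**Figure D2:**
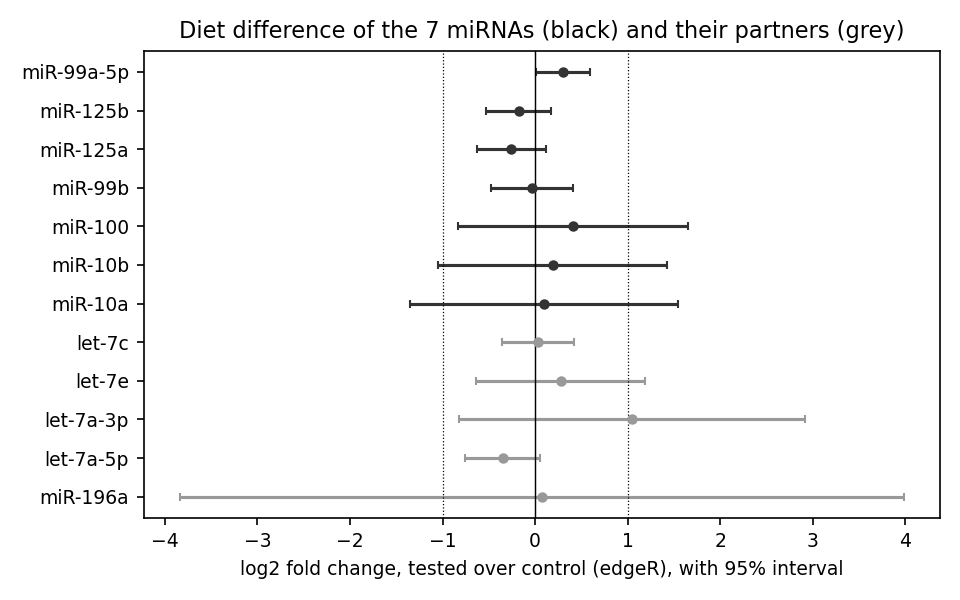
The log2 fold change, tested over control, from edgeR with its 95% interval for the 7 miRNAs (black) and 5 partner miRNAs (grey), with dotted lines at -1 and 1. The intervals of the 4 abundant miRNAs lie within the dotted lines, and those of miR-100, miR-10b and miR-10a cross at least 1 of them.

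Because miR-99 or miR-100 and miR-125 come from the same clusters, the difference between them was taken within each library, where the total of the library drops out. The ratio of bta-miR-99a-5p to bta-miR-125b was 3.64, 3.47 and 2.77 for control cows, against 4.78, 4.40 and 4.55 for tested cows. The lowest tested cow thus exceeded the highest control cow. The mean log2 ratio was 1.71 ± 0.210 (SD, n = 3) for control and 2.19 ± 0.0587 (SD, n = 3) for tested cows, a difference of 0.48, or 1.40-fold (exact permutation test, p = 0.1, adjusted p = 0.3 over the 3 pairs compared). With 1 cow left out the log2 difference ran from 0.36, without control cow 3, to 0.56, without control cow 1. Of the other 6 miRNAs, miR-99a was the only one whose ratio to bta-miR-125b did not overlap between the groups, while 14.4% of the 132 known miRNAs with at least 10 counts in every library, these 6 included, did not overlap in this ratio. Against bta-miR-125a it was again bta-miR-99a-5p alone, with ratios of 4.52, 4.60 and 3.72 for control cows, against 7.38, 6.05 and 5.63 for tested cows, where 21.2% of the 132 miRNAs taken in the same way did not overlap.

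In the other pairs the groups overlapped. The ratio of bta-miR-99b to bta-miR-125a was 0.410, 0.397 and 0.310 for control cows, against 0.511, 0.362 and 0.449 for tested cows, with a log2 difference of 0.24 (exact permutation test, p = 0.4, adjusted p = 0.6 over the 3 pairs). Tested cow 2 lay below control cows 1 and 2, and the overlap rests on that cow. Leaving it out removes the overlap by choice, so the separation that remains is not a result. The log2 difference was 0.38 without tested cow 2, 0.11 without control cow 3 and 0.13 without tested cow 1. The ratio of bta-miR-100 to bta-miR-125b was 0.0299, 0.0162 and 0.00915 for control cows, against 0.0477, 0.00898 and 0.0279 for tested cows, with a log2 difference of 0.48 (exact permutation test, p = 0.8, adjusted p = 0.8 over the 3 pairs). That difference is as large as the one for miR-99a, but the SD of the log2 ratio was 0.855 among control and 1.23 among tested cows, and without tested cow 1 it was -0.06.

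Summed by seed, miR-99a, miR-99b and miR-100 held 5.57%, 6.12% and 4.34% of known counts for control cows, against 6.58%, 6.93% and 6.55% for tested cows, and bta-miR-99a-5p supplied 91.0% to 94.2% of this sum. The sum of miR-10a and miR-10b was 0.0616%, 0.0331% and 0.0274% for control cows, against 0.0870%, 0.0262% and 0.0257% for tested cows. For miR-125a and miR-125b it was 2.51%, 2.84% and 2.51% for control cows, against 2.10%, 2.56% and 2.40% for tested cows. The miR-99, miR-100 and miR-10 counts together were 2.24, 2.17 and 1.74 times those of miR-125 for control cows, against 3.17, 2.72 and 2.74 times for tested cows, with a log2 difference of 0.49. No test was made on sums over the miRNAs. Relative to clean reads the first sum had a lower mean in the tested group, while its ratio to miR-125 is the same on any scale.

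**Figure D3:**
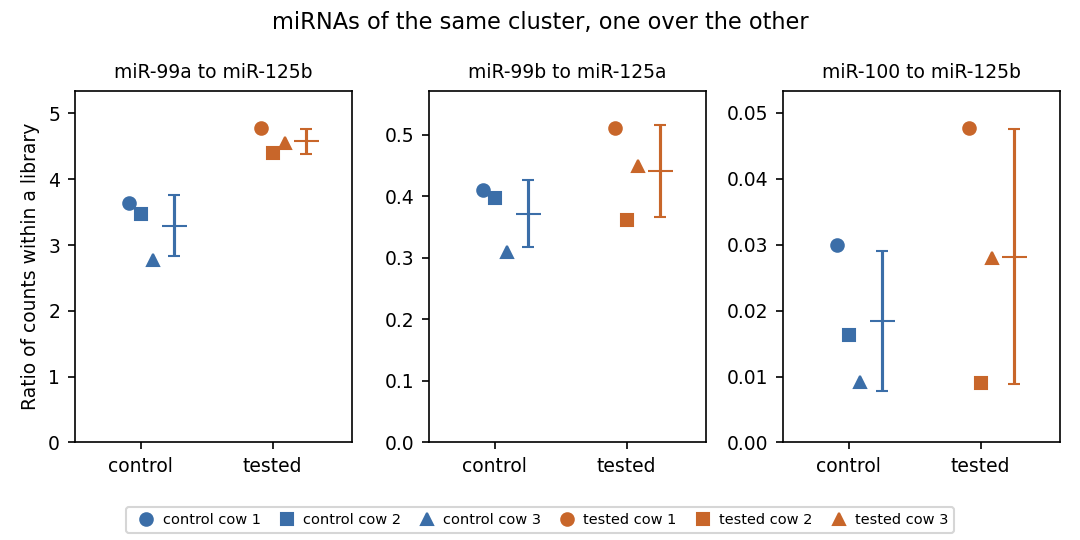
The ratio of counts within each library for the 3 pairs of the same clusters, with 1 point per cow and the group mean ± SD beside the points. For miR-99a to miR-125b the tested cows lie between 4.40 and 4.78 and the control cows between 2.77 and 3.64, and for the other pairs the groups overlap.

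The ratio of bta-miR-99a-5p to bta-miR-99b, which share their seed, was 11.0, 11.6 and 12.0 for control cows, against 14.4, 16.7 and 12.5 for tested cows, a comparison chosen after the values were seen and given without a test. These ranges did not overlap, but neither did those of 25.0% of the 132 known miRNAs with at least 10 counts in every library when set against bta-miR-99a-5p, so the separation is not particular to miR-99b. The balance within the other groups did not follow the diets. The share of bta-miR-125b in the miR-125 sum ran from 55.3% to 57.3% in the control cows and from 55.3% to 60.7% in the tested cows, and that of bta-miR-10b in the miR-10 sum from 59.6% to 68.8% and from 55.6% to 71.7%.

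The partner list holds the let-7 miRNAs of the same clusters, the other arms of the 7 miRNAs, and miR-196 and miR-615 of the HOX clusters. Of it, 5 miRNAs matched rows of the count table and 0 of the 5 passed the threshold. The let-7 neighbour of miR-99a, bta-let-7c, had 0.803%, 0.898% and 0.933% of known counts for control cows, against 0.956%, 0.976% and 0.869% for tested cows, and its log2 fold change was 0.03 (adjusted p = 0.987 from edgeR). Its level was between those of bta-miR-125a and bta-miR-99b in all 6 libraries but tested cow 1. In tested cow 1 it exceeded bta-miR-125a. The ratio of bta-let-7c to bta-miR-125b, 0.578, 0.555 and 0.648 for control cows, against 0.748, 0.659 and 0.656 for tested cows, did not overlap between the groups either, where 14.4% of the 132 miRNAs did not, with a log2 difference of 0.21. The ratio of bta-miR-99a-5p to bta-let-7c was 6.31, 6.25 and 4.28 for control cows, against 6.38, 6.69 and 6.94 for tested cows.

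The neighbour of miR-99b and miR-125a, bta-let-7e, was scarcer than both, with 0.0280%, 0.0609% and 0.0523% of known counts for control cows, against 0.0375%, 0.0651% and 0.0783% for tested cows, and a log2 fold change of 0.28 (adjusted p = 0.881 from edgeR). Its ratio to the miRNAs beside it was unsteady, bta-miR-99b exceeding it by 6.0-fold to 16.4-fold. For bta-let-7a-5p, which has 3 genes, 1 of them beside miR-100, the log2 fold change was -0.35 (adjusted p = 0.448 from edgeR), and for its other arm bta-let-7a-3p it was 1.04 with 39, 71 and 82 counts for control cows, against 135, 94 and 130 for tested cows (adjusted p = 0.681 from edgeR). The HOX miRNA bta-miR-196a had 47, 33 and 0 counts for control cows, against 6, 41 and 47 for tested cows, and its count of 0 allows a share of up to 0.000151% in control cow 3.

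The 3 scarce miRNAs varied more between cows than the abundant ones. From the lowest to the highest library the share of bta-miR-100 varied 4.63-fold, that of bta-miR-10a 4.13-fold and that of bta-miR-10b 3.90-fold, against 1.27-fold for bta-miR-125b, 1.46-fold for bta-miR-99b, 1.47-fold for bta-miR-125a and 1.64-fold for bta-miR-99a-5p. Other miRNAs of like level were also variable, but most of them less so. The coefficient of variation over the 6 libraries was 59.9% for bta-miR-10a, above 33 of the 38 other known miRNAs with a mean share within 2-fold of its own, whose median was 36.1%. For bta-miR-10b it was 58.4%, above 27 of 33 with a median of 32.4%, and for bta-miR-100 57.4%, above 25 of 30 with a median of 32.4%. Tested cow 1 was highest for all 3, and control cow 1 was second for all 3.

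Over the 6 libraries, Pearson's r of log2 shares was 0.893 between bta-miR-10a and bta-miR-10b (Spearman's rho 0.829), 0.828 between bta-miR-100 and bta-miR-10b (rho 0.714) and 0.644 between bta-miR-100 and bta-miR-10a (rho 0.657). Without tested cow 1 these were 0.797, 0.703 and 0.388. Shares of 1 library have the same total, and these values describe 6 points only. Without the libraries farthest from the median of bta-miR-10a, both cows numbered 1, the first r was -0.16, so the likeness of miR-10a and miR-10b rests on those cows. Between bta-miR-125a and bta-miR-125b r was 0.790 (rho 0.829), and it was -0.09 without tested cow 1 and control cow 2. For the pairs that share a cluster, r over the 6 libraries was -0.13 between bta-miR-99a-5p and bta-miR-125b, 0.22 between bta-miR-99b and bta-miR-125a, and -0.61 between bta-miR-100 and bta-miR-125b. Without the 2 libraries farthest from the median of the first-named miRNA these were -0.36, 0.91 and -0.88, so the value for miR-99b and miR-125a depends on control cow 3 and tested cow 2.

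Each of the 7 was also set beside 126 other known miRNAs with at least 10 counts in every library. The most alike to bta-miR-10a were the liver miRNA bta-miR-122 (r = 0.989, rho 1, r without the 2 farthest libraries 0.907) and the lymphocyte miRNA bta-miR-150 (r = 0.982, rho 1, and 0.998). To bta-miR-10b they were bta-miR-486, abundant in red blood cells (r = 0.973, rho 0.943, and 0.643), and bta-miR-192 (r = 0.946, rho 0.829, and 0.605). To bta-miR-100 they were bta-miR-128 (r = 0.926, rho 0.829, and 0.716) and bta-miR-11976 (r = 0.915, rho 1, and 0.902). The abundant bta-miR-99a-5p was most like the epithelial miRNAs bta-miR-200a (r = 0.974, rho 0.829, and 0.621) and bta-miR-141 (r = 0.898, rho 0.829, and 0.680). This likeness did not extend to all epithelial miRNAs. The epithelial bta-miR-200c was highest in control cow 3 (45635 CPM), where bta-miR-99a-5p was lowest (42507 CPM). For bta-miR-99b the most alike were bta-miR-12023 (r = 0.915, rho 1, and 0.852) and bta-miR-2285f (r = 0.907, rho 0.657, and 0.339). For bta-miR-125a they were bta-miR-21-5p (r = 0.855, rho 0.543, and 0.863) and bta-miR-421 (r = 0.849, rho 0.257, and -0.604), and for bta-miR-125b bta-miR-339a (r = 0.811, rho 0.714, and 0.725) and bta-miR-197 (r = 0.754, rho 0.886, and 0.836). Without tested cow 1 both values of bta-miR-125a were near 0, at 0.02 and 0.03.

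Shares of cell type markers were also summed. The marker lists hold some of the most alike miRNAs named above (miR-122, miR-150, miR-486, miR-192, miR-200a and miR-141). Each was picked for its high r among 126 candidates over 6 libraries, a choice that by itself yields high values. How many of the 126 candidates are on the marker lists was not counted. The 3 red blood cell miRNAs (miR-451, miR-144 and miR-486), none at 0, held 2.84%, 1.63% and 1.35% of known counts for control cows, against 5.96%, 1.08% and 0.862% for tested cows, highest in the same cows as the scarce miRNAs. The 4 white blood cell miRNAs ran from 0.0196% to 0.0386% in the control cows and from 0.0124% to 0.0439% in the tested cows, and the 3 liver miRNAs from 0.107% to 0.159% and from 0.113% to 0.202%. Like the red blood cell miRNAs, both sets were as sums highest in tested cow 1 and next in control cow 1. In CPM bta-miR-150, bta-miR-122 and bta-miR-192 had this order, and bta-miR-142-5p was highest in control cow 1 and next in tested cow 1. The others did not, bta-miR-155 being highest in control cow 3 (126 CPM) and bta-miR-223 in tested cow 3 (39.9 CPM). The lowest value of bta-miR-194 was in control cow 1 (18.8 CPM). The 7 listed miRNAs of platelets and blood vessels held 0.0279% to 0.0679% in the control cows and 0.0720% to 0.0850% in the tested cows. These ranges did not overlap, and how often other sums of miRNAs lie apart was not counted. The log2 fold changes of the 7 ran from 0.61 for bta-miR-126-3p to 2.66 for bta-miR-199a-3p. Only bta-miR-199a-3p passed the threshold (unadjusted p of 0.0312 and adjusted p = 0.448 from edgeR). The 7 listed epithelial miRNAs held 7.79% to 9.33% and 9.04% to 9.75%. Their log2 fold changes had both signs, and none passed the threshold. They were 0.37 for bta-miR-141, 0.27 for bta-miR-200a and bta-miR-429 and 0.21 for bta-miR-200b, against -0.10 for bta-miR-200c, -0.22 for bta-miR-205 and -0.41 for bta-miR-375 (adjusted p from 0.448 to 0.987 from edgeR). The 5 listed muscle miRNAs held 0.0133% to 0.0158% and 0.0152% to 0.0178%. Their part in the levels of the 7 miRNAs was not tested, and in serum more vesicles of a cell type and more miRNA per vesicle cannot be told apart.

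**Figure D4:**
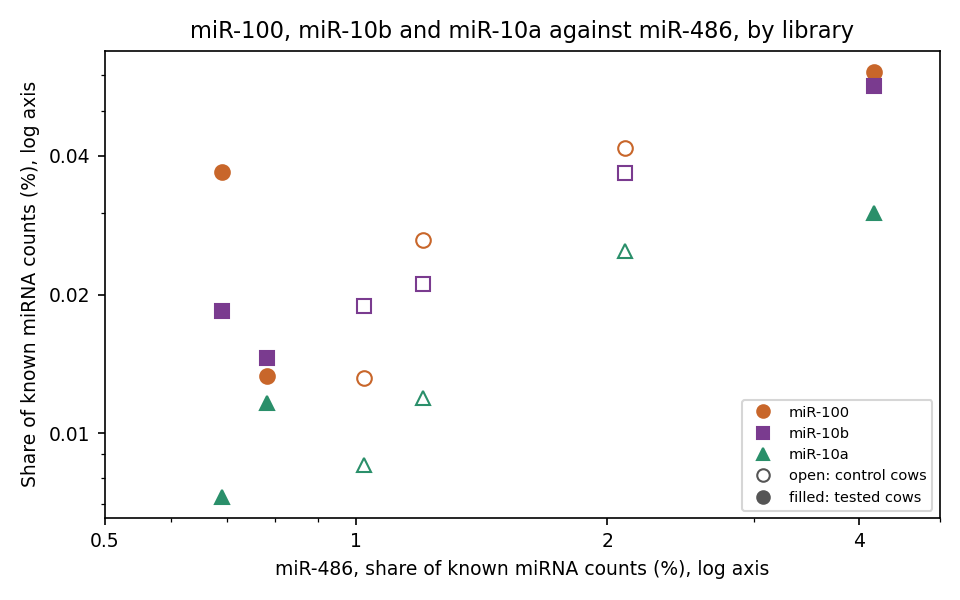
The share of known counts of miR-100, miR-10b and miR-10a against that of miR-486 (both in percent, log axes), 1 point per library and miRNA, open for control and filled for tested cows. Tested cow 1, with 4.17% miR-486, is at the upper right for all 3 miRNAs, and control cow 1, with 2.10%, is next to it.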

How the data were processed

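Serum EV small RNAs of 6 cows were sequenced. The authors selected trimmed reads by length, filtered them with FASTX Toolkit and NGS QC Toolkit, matched them to the bovine genome (ARS-UCD1.2 and Bowtie in the submitters' processing notes, which also name cutadapt 1.14), set other RNA classes aside with Rfam, and named known miRNAs from miRBase. The authors deposited raw counts per miRNA. The second deposited table, labelled TPM, holds RPM, each count relative to that library's clean reads. The authors' own fold changes and p-values, in that table and in a further table of the miRNAs they called, were not used. The counting tool is not given in the sources used here.

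Shares were taken of the summed known miRNA counts of a library. R 4.3.3 with edgeR 4.0.16 (TMM, glmQLFit, glmQLFTest) was fitted to the 623 miRNAs with at least 10 summed counts, with Benjamini-Hochberg adjustment over all of them. A standard error was the log2 fold change divided by the square root of its F. DESeq2 1.42.0 and limma 3.58.1 on log2(CPM + 1) were alternatives, as were other scalings and filters. The tools were also run on simulated counts with known fold changes, judged by averages over the tools and not tool by tool. Permutation tests were exact and two-sided (Python 3.11.15, NumPy 2.4.6, SciPy 1.17.1). Plots used Matplotlib 3.10.9. The named miRNAs are the 7, a partner list, the 2 most alike known miRNAs of each by Pearson's r, and 6 marker lists for red and white blood cells, platelets and blood vessels, liver, muscle and epithelium. The members and lists were chosen with earlier results of these data known.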

Additional observations from a re-analysis of the deposited data

How the results depend on the processing

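The count of 0 of the 7 miRNAs past the threshold, and of 0 of the 5 partners, stayed 0 under every alternative run and with each cow left out. Over all miRNAs 20 passed, against 34 with limma, 13 of 348 with filterByExpr, 6 of 312 with known miRNAs only and 12 with the replicate number as a block, and between 17 and 23 with 1 cow left out. The log2 fold change of bta-miR-99a-5p stayed positive (0.20 to 0.41 with a cow left out), but its unadjusted p passed 0.05 with RLE factors (0.212), no filter (0.0752), filterByExpr (0.0918), DESeq2 (0.404) and limma (0.523). The small log2 fold change of bta-miR-99b turned to 0.0128 with library sizes alone, 0.0205 with known library sizes and 0.0019 with known miRNAs only (-0.14 to 0.0592 with a cow left out). That of bta-miR-10a turned to -0.0563 and that of bta-miR-10b to -0.0361 with limma, and to -0.0567 and -0.0397 with the replicate block. With a cow left out they ran from -0.68 to 0.59 and from -0.68 to 0.49, and that of bta-miR-100 from -0.18 to 0.80. Those of bta-miR-125a and bta-miR-125b stayed negative, from -0.38 to -0.14 and from -0.31 to -0.09. The log2 difference of miR-99b to miR-125a ran from 0.11 to 0.38, and that of miR-100 to miR-125b ran from -0.0551, without tested cow 1, to 1.15. As shares of clean reads, the difference (tested minus control) was -0.0456 percentage points for the summed miR-99 and miR-100 against 1.34 as a share of known counts (0.842 without control cow 3 to 1.74 without control cow 2), and -0.0298 for bta-miR-99a-5p alone, a value added after the data were seen. Known counts were a lower share of clean reads in tested cows 1 and 3 than in any other cow. The cause was not tested.

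The replicate numbers did not pair the cows. The correlation of same-numbered cows' deviations over 180 known miRNAs was 0.253, 0.00063 and 0.0013. Between differently numbered cows it ran from -0.195 to 0.190. The block changed no call among the 7. Depth limits the scarce miRNAs most, with 152 to 772 counts per library for miR-100, miR-10a and miR-10b.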
